A study of Mus musculus with 6 samples.

Results

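The genes described here are 36 components of TGF-beta and activin signalling, measured by RNA sequencing in 6 mouse liver samples. They are 3 TGF-beta ligand genes, 5 latency protein genes, 2 genes of activating integrins, 3 TGF-beta receptor genes, 5 SMAD genes, 2 ubiquitin ligase genes, 3 nuclear corepressor genes, 2 genes of membrane inhibitors, 4 activin subunit genes, the gene of 1 activin trap, 4 activin receptor genes and 2 BMP receptor genes. They were found by gene symbol in the deposited count table, in which all 36 of the symbols occur among 22183, and all 36 passed the filter on low counts, as did 14681 genes in all. Livers of the DOX group (3 libraries, S2W-DOX) were compared with livers of the PBS group (3 libraries, S2W-PBS; PBS is phosphate-buffered saline). Both groups carried the genotype label BucheKI/KI-Hep and both had received DDC, so the knock-in and the injury agent are shared by all 6 samples. No group without the knock-in was measured, so an effect of DOX itself and one of a change in Bche cannot be told apart. The series describes overexpression of BUCHE, butyrylcholinesterase, in hepatocytes. DOX and DDC are not spelled out in the labels; in liver work they usually stand for doxycycline, which switches engineered genes on or off, and for a porphyrinogenic diet compound that injures bile ducts. The labels give neither the promoter that drives the knock-in, nor an age or a dose, nor whether the 3 samples of a group were separate animals, and the p-values therefore speak only to variation among these 6 samples, part of which may be technical.

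TGF-beta is secreted in a latent form, held by its own propeptide and tethered to the matrix by LTBP proteins or to cell surfaces by LRRC32. Integrins that contain the alpha-v chain release it. The free ligand joins type II and type I receptor kinases, which phosphorylate SMAD2 and SMAD3; these enter the nucleus with SMAD4. Activins use other receptors but the same SMADs, whereas BMPs act through SMAD1, SMAD5 and SMAD9. In the liver, TGF-beta is the main cytokine that drives stellate cells to make scar collagen, and the activin subunit genes Inhbc and Inhbe are expressed chiefly by hepatocytes.

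Total counts per library were 32476725 to 40298256 in DOX and 40592030 to 41921404 in PBS. Bche, the butyrylcholinesterase gene, stood at 1940, 1870 and 1760 CPM (normalised read count, brought to a common library size with TMM factors) in DOX 1 to 3, against 177, 177 and 206 CPM in PBS 1 to 3 (9.94-fold, adjusted p = 1.65e-07 in edgeR's quasi-likelihood test). The labels do not say in which direction DOX acts on the knock-in. Markers of 10 cell types were summed. For 10 stellate cell and fibroblast genes the sum was 449 to 688 CPM in DOX and 1080 to 1280 CPM in PBS. In edgeR's test 7 of these were lower and 1, Pdgfra, was higher (1.61-fold, adjusted p = 0.00575). Over all tested genes, 14.0% were lower and 13.5% higher. Without Col1a1 and Col3a1 the sum was 199 to 265 CPM in DOX and 282 to 339 CPM in PBS. The 6 hepatocyte markers (Alb, Ttr, Apoa1, Hnf4a, Serpina1c and Tat) summed to 83600 to 107000 CPM in DOX and 81800 to 85200 CPM in PBS, and 7 endothelial markers to 189 to 226 CPM in DOX and 161 to 182 CPM in PBS. The sum was 540 to 794 CPM in DOX and 774 to 939 CPM in PBS for 6 bile duct genes, and 1450 to 1490 CPM in DOX and 1400 to 1520 CPM in PBS for 7 macrophage genes. Neutrophil genes (4) summed to 28.4 to 72.7 CPM in DOX and 21.7 to 32.6 CPM in PBS, platelet genes (4) to 15.9 to 18.2 CPM in DOX and 9.7 to 11.4 CPM in PBS, and mesothelial genes (4) to 8.36 to 10.8 CPM in DOX and 7.1 to 8.94 CPM in PBS. T or NK cell genes (5) stood at 1.08 to 2.53 CPM in DOX and 3.44 to 4.68 CPM in PBS, and B cell genes (4) at 0.635 to 0.953 CPM in DOX and 1.43 to 2.37 CPM in PBS. In the other lists, 3 of 6 hepatocyte, 3 of 7 endothelial and 1 of 7 macrophage genes were called higher. So were 2 of 2 tested platelet and 1 of 3 tested neutrophil genes. Called lower were 1 of 6 bile duct, 1 of 5 T or NK cell and 1 of 1 tested B cell genes. No marker was at 0 in all 6 libraries. The share of reads from the mitochondrial genome was 5.11 to 6.81% in DOX and 3.45 to 4.58% in PBS. In such bulk samples fewer cells of a type and less RNA per cell cannot be told apart, and the part of these differences in the results below was not tested.

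Of the 36 genes, 6 rose in DOX livers (Tgfbr3, Lrrc32, Smad1, Smurf1, Smad4 and Smad2) and 3 fell (Ltbp2, Pmepa1 and Tgfb2), while 27 did not pass edgeR's quasi-likelihood test at a Benjamini-Hochberg adjusted p under 0.05. Over all tested genes 27.5% were called, 13.5% higher and 14.0% lower. The share among the 36 was 25%, with 16.7% higher and 8.33% lower, so the pathway as a group was called about as often as any gene. Its median log2 fold change was -0.07, against -0.01 over all tested genes. The DOX and PBS libraries did not overlap for 18 of the 36 genes, or 50%, against 44.1% of all tested genes. Scaled by library size alone, which moved the median of all genes to -0.16, 3 of the 36 rose and 8 fell. Calls of higher genes numbered 2 without DOX 3 and 3 without PBS 2 or without PBS 3; calls of lower genes numbered 2 without DOX 3 or without PBS 2. All p-values of single genes below are adjusted p-values of this edgeR test over the 14681 genes, and fold changes are DOX over PBS.

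**Figure D1:**
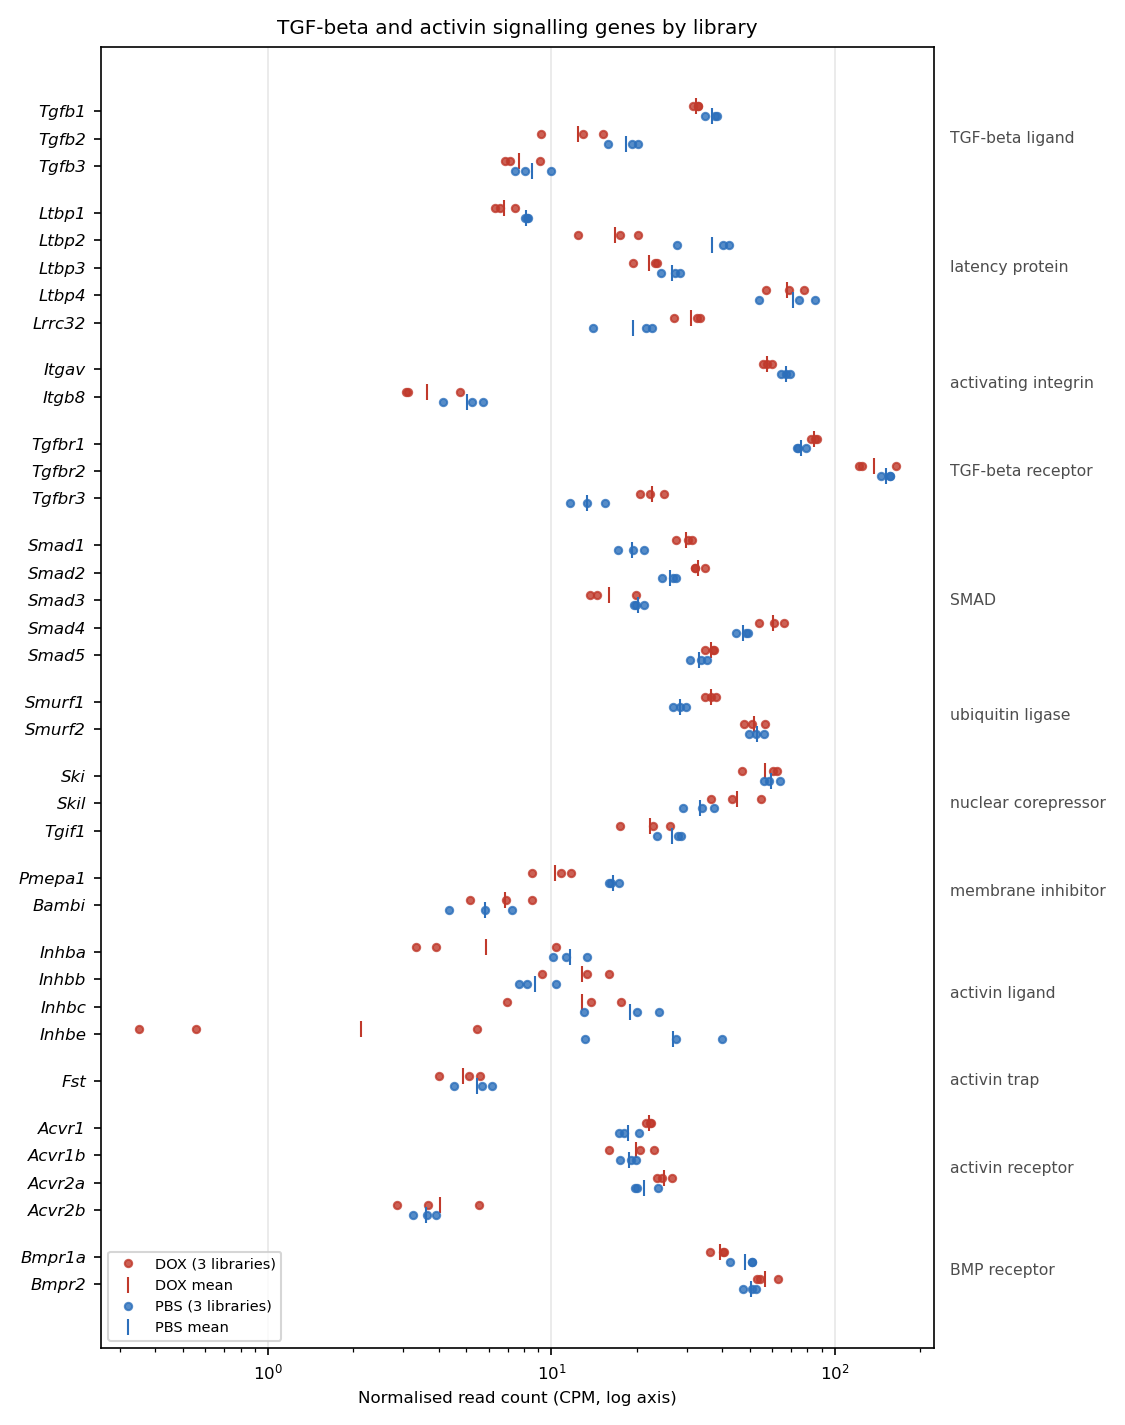
Normalised read count (CPM, logarithmic horizontal axis) of each of the 36 genes in every library. Red points are the 3 DOX and blue points the 3 PBS libraries, with a tick for each group mean. Genes are ordered by role. Inhbe has the widest gap, with 0.349 to 5.48 CPM in DOX and 13.1 to 40.1 CPM in PBS livers, while most genes differ little beside it.

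**Figure D2:**
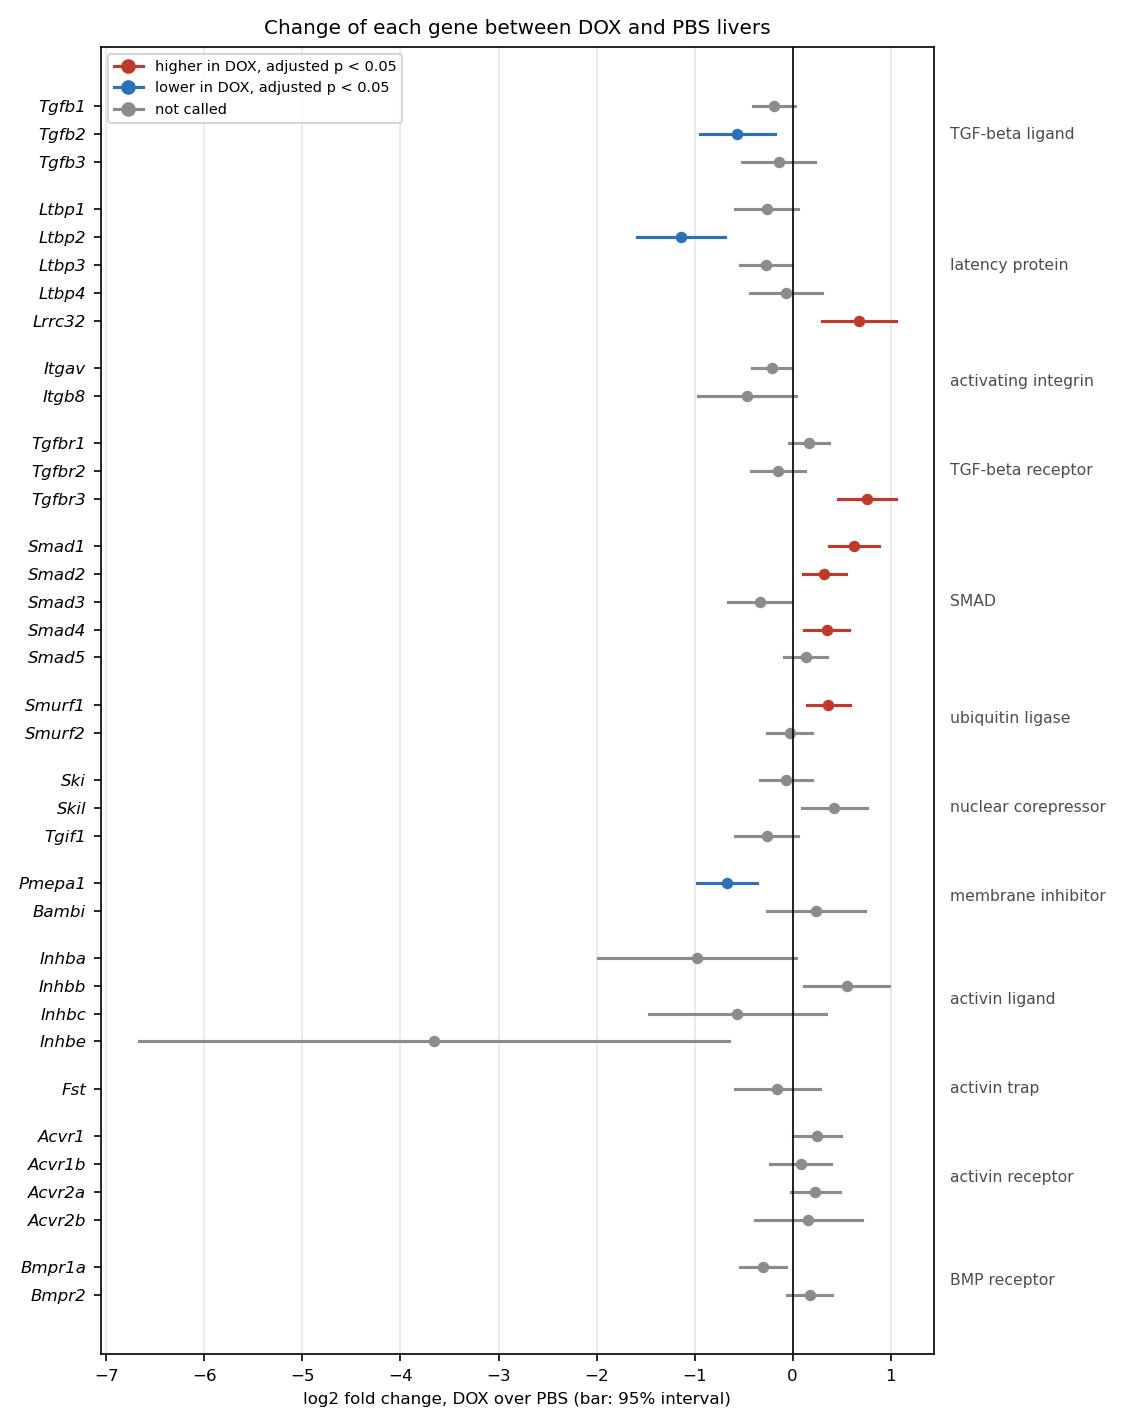
Log2 fold change of each gene, DOX over PBS, with its 95% interval from the edgeR fit; red marks the 6 genes that rose, blue the 3 that fell and grey the 27 that did not pass. Ltbp2 at -1.14 and Tgfbr3 at 0.76 are the largest changes among those that passed, and Inhbe at -3.66 has the widest interval.

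The 2 neighbouring activin genes Inhbe and Inhbc, the latency gene Ltbp2 and the SMAD gene Smad1 are shown by sequence, the activin pair because their within-library ratio did not overlap between the groups and Ltbp2 and Smad1 as a gene that fell and a gene that rose under all 15 alternatives. They were chosen among the genes with a RefSeq window, so Tgfbr3 and Pmepa1 are not shown. The 250 bases before the transcription starts are given here (assembly GRCm38.p6, all minus strand, read 5′ to 3′). The windows lie at chr10:127351849-127352098 for Inhbe, chr10:127370549-127370798 for Inhbc, chr12:84876492-84876741 for Ltbp2 and chr8:79399429-79399678 for Smad1. The Ltbp2 window lies partly within the annotated span of its gene, which ends at position 84876558. Those of Inhbe, Inhbc and Smad1 begin just past their gene ends. Capitals mark matches, on either strand, to the SMAD box CAGAC, the palindromic element GTCTAGAC, the BMP-SMAD element GGCGCC or the C/EBP-ATF element TGATGNAA.
Inhbe: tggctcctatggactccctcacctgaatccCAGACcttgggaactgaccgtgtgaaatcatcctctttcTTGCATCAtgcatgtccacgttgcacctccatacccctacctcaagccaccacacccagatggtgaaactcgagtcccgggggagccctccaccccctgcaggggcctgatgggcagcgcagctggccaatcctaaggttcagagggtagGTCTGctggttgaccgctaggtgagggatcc
Inhbc: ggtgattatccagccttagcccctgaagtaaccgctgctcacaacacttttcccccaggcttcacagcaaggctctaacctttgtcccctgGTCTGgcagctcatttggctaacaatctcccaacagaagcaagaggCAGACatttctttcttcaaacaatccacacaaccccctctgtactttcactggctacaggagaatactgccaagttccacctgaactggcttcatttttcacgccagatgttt
Ltbp2: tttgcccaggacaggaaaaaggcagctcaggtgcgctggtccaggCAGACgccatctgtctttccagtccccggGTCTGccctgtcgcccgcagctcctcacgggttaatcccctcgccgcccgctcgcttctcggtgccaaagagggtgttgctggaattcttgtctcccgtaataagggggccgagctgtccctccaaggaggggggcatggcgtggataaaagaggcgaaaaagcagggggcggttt
Smad1: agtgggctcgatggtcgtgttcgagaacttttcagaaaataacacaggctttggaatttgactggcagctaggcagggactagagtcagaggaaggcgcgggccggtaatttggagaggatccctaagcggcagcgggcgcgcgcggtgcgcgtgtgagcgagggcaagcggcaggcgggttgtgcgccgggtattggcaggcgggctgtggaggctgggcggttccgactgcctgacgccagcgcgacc
The SMAD box occurred 2 times each in the windows of Inhbe, Inhbc and Ltbp2, and none of the 4 motifs occurred in that of Smad1. It is a common word: 42.2% of the 32851 RefSeq windows of this length hold it, as did 18 of the 37 windows (48.6%) of the 27 described genes that have any; some genes have several windows. GGCGCC was found in 8 of these 37 windows (21.6%) and in 9.59% of all windows. GTCTAGAC was found in 0 of the 37 and in 0.167% of all windows. The C/EBP-ATF element, which stress-induced factors such as ATF4 and CHOP bind, was found in 1 of the 37 windows (2.7%) and in 3.45% of all windows. The gene was Inhbe, with the match starting 181 bases before the start on the opposite strand, and Inhbc has no match. Letters that match are a description of these windows and not evidence of binding.

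Among the ligand genes, Tgfb1, the predominant TGF-beta ligand of injured liver, was measured at 33.0, 31.6 and 32.8 CPM in DOX 1 to 3, against 38.5, 34.8 and 37.7 CPM in PBS 1 to 3. All DOX libraries lay below all PBS libraries, but the gap was small. The log2 fold change was -0.19 (SE 0.10, 95% interval -0.40 to 0.03, adjusted p = 0.173). With library totals in place of TMM it passed (0.0227), and over 15 alternative settings its adjusted p ran between 0.0218 and 0.37. Tgfb2, a second ligand that needs the co-receptor TGFBR3 for efficient binding, stood at 15.2, 9.19 and 12.9 CPM in DOX and 19.2, 20.2 and 15.8 CPM in PBS. The groups were separate, with DOX 1 just below PBS 3. Tgfb2 fell by 0.56 on the log2 scale (SE 0.18, adjusted p = 0.0342). This call was lost without DOX 2 (adjusted p = 0.0685), DOX 3 (0.076), PBS 1 (0.0946) or PBS 2 (0.115), and its adjusted p ran between 0.00412 and 0.115 over the alternatives. Tgfb3 overlapped between the groups, at 6.87 to 9.08 CPM in DOX and 7.44 to 10 CPM in PBS.

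Per length of transcript, Tgfb1 was the most abundant of the 3, at 14.0 ± 0.53 FPKM in DOX and 17.8 ± 0.87 FPKM in PBS (SD, n = 3 each). Tgfb3 followed at 2.15 ± 0.32 FPKM in DOX and 2.66 ± 0.44 FPKM in PBS, and Tgfb2 at 1.38 ± 0.34 FPKM in DOX and 2.28 ± 0.35 FPKM in PBS (SD, n = 3 each). FPKM was scaled by the authors to the library total, so levels in DOX read lower on this scale than in CPM. Tgfb1 supplied 77.1, 82.2 and 80.4% of the summed ligand FPKM in DOX 1 to 3, against 77.1, 77.6 and 80.2% in PBS 1 to 3. This mix overlapped between the groups (difference 1.63 percentage points, exact two-sided permutation p = 0.4).

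Among the latency genes, Ltbp2, a matrix protein of the LTBP family that itself does not bind latent TGF-beta, was the gene with the largest change among the 9 called. Its levels were 17.4, 20.2 and 12.4 CPM in DOX, against 40.3, 27.8 and 42.2 CPM in PBS. Every DOX library lay below every PBS library. Ltbp2 fell by 1.14 on the log2 scale, or 2.2-fold (SE 0.20, adjusted p = 0.00339), and it was called lower under all 15 alternatives, with log2 fold changes of -1.31 to -0.95. The family members that do bind latent TGF-beta were not called. Ltbp1 was at 6.32 to 7.46 CPM in DOX and 8.04 to 8.24 CPM in PBS, and Ltbp3 at 19.4 to 23.6 CPM in DOX and 24.3 to 28.4 CPM in PBS. Both had separate groups, with an adjusted p of 0.2 for Ltbp1 and a log2 fold change of -0.27 with an adjusted p of 0.107 for Ltbp3. Ltbp3 passed with library totals in place of TMM (adjusted p = 0.0204). Ltbp4, the most abundant LTBP gene per length at 10.4 ± 1.43 FPKM in DOX and 12.2 ± 2.68 FPKM in PBS (SD, n = 3 each), overlapped between the groups.

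Lrrc32 encodes GARP, which displays latent TGF-beta on regulatory T cells, platelets and endothelium. It moved the other way from Ltbp2, at 33.4, 27.0 and 32.6 CPM in DOX against 22.6, 14.0 and 21.6 CPM in PBS. The groups were separate, and Lrrc32 rose by 1.6-fold (log2 0.68, SE 0.17, adjusted p = 0.0148). The adjusted p was 0.0635 without DOX 1 and 0.0526 without DOX 3, and ran between 0.000896 and 0.121 over the alternatives. The platelet and endothelial marker sums were also separate between the groups, at 15.9 to 18.2 CPM in DOX against 9.7 to 11.4 CPM in PBS for platelets and 189 to 226 CPM in DOX against 161 to 182 CPM in PBS for endothelium. The T or NK cell sum was separate in the other direction, at 1.08 to 2.53 CPM in DOX and 3.44 to 4.68 CPM in PBS. Of the 4 platelet genes, Pf4 and Itga2b rose, Ppbp averaged 0.0176 CPM in DOX and 0.2 CPM in PBS, and Gp9 overlapped, the last 2 too low to be tested. The part of these cells in the rise of Lrrc32 was not tested. Itgav, the alpha-v chain that frees TGF-beta, stood at 55.7 to 60.1 CPM in DOX and 64.5 to 69.4 CPM in PBS. Its log2 fold change was -0.22 (adjusted p = 0.107, or 0.00998 with library totals in place of TMM). Its partner Itgb8 was low, at 3.06 to 4.74 CPM in DOX and 4.15 to 5.74 CPM in PBS, and overlapped.

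The kinase receptor genes Tgfbr1 and Tgfbr2 were not called, whereas the co-receptor gene Tgfbr3, encoding betaglycan, rose. Tgfbr3 was at 25.0, 22.3 and 20.6 CPM in DOX, against 15.4, 11.6 and 13.3 CPM in PBS. All DOX libraries were above all PBS libraries. The rise was 1.69-fold (log2 0.76, SE 0.14, adjusted p = 0.00261) and was called under all 15 alternatives, at adjusted p-values up to 0.0374. Tgfbr1 had 82.5 to 86.8 CPM in DOX and 73.6 to 79.3 CPM in PBS (log2 fold change 0.16, 95% interval -0.04 to 0.37, adjusted p = 0.214). Tgfbr2 had 122, 164 and 125 CPM in DOX and 156, 145 and 156 CPM in PBS (log2 fold change -0.15, adjusted p = 0.406), with DOX 2 above every PBS library. Tgfbr2 was the most abundant of the 36 genes per length, at 27.1 ± 4.34 FPKM in DOX and 33.6 ± 1.11 FPKM in PBS (SD, n = 3 each). The ratio of Tgfbr3 to Tgfbr2 FPKM, which does not depend on library scaling, was 0.161, 0.107 and 0.13 in DOX against 0.0774, 0.063 and 0.067 in PBS. The ratio was 1.92-fold higher in DOX, with exact two-sided permutation p = 0.1, the smallest that 3 against 3 libraries allow. Stellate and endothelial cells are among those that express Tgfbr3. The stellate cell and fibroblast sum was lower in DOX, at 449 to 688 CPM against 1080 to 1280 CPM in PBS. The endothelial sum was higher, at 189 to 226 CPM in DOX against 161 to 182 CPM in PBS. The part of either cell type in the rise of Tgfbr3 was not tested.

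Of the 5 SMAD genes, 3 rose (60%, against 13.5% of all tested genes) and 2 were not called. Of the 3, Smad2 kept its call under only 4 and Smad4 under 6 of the 15 alternatives. Smad1, a transducer of BMP signals, had 31.4, 27.6 and 30.4 CPM in DOX and 21.3, 17.2 and 19.4 CPM in PBS. The groups were well apart, and Smad1 rose 1.55-fold (log2 0.63, SE 0.12, adjusted p = 0.00306), a call kept under all 15 alternatives with adjusted p-values up to 0.0405. Its partner Smad5 was at 34.9 to 37.5 CPM in DOX and 30.9 to 35.4 CPM in PBS and overlapped (log2 fold change 0.13, adjusted p = 0.352; -0.02 when scaled by library size alone).

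Among the SMADs of TGF-beta and activin, Smad2 had 32.1, 32.1 and 34.8 CPM in DOX and 26.9, 24.5 and 27.5 CPM in PBS. The common partner Smad4 had 60.9, 54.2 and 66.3 CPM in DOX and 48.7, 44.8 and 49.2 CPM in PBS. For both genes the groups were separate but the rises were small, 1.25-fold for Smad2 (log2 0.32, SE 0.10, adjusted p = 0.0348) and 1.27-fold for Smad4 (log2 0.35, SE 0.11, adjusted p = 0.0308). Neither held when scaled by library size alone (adjusted p = 0.245 for Smad2 and 0.204 for Smad4). Leaving out a library ended the Smad2 call for DOX 1 (0.0614), DOX 3 (0.118), PBS 1 (0.0818), PBS 2 (0.14) and PBS 3 (0.0667), with adjusted p-values between 0.0284 and 0.37 over the alternatives. The Smad4 call ended without DOX 1 (0.0705), DOX 3 (0.124), PBS 1 (0.0756), PBS 2 (0.117) or PBS 3 (0.066), with adjusted p-values between 0.00744 and 0.324.

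Smad3, the more directly DNA-binding of the pair that TGF-beta activates, had 19.8, 13.7 and 14.5 CPM in DOX and 21.2, 19.6 and 19.8 CPM in PBS. DOX 1 lay within the PBS range and the other 2 DOX libraries lay below it. Its log2 fold change was -0.34 (SE 0.145, adjusted p = 0.105). It passed without DOX 1 (0.0195) and with library totals in place of TMM (0.0249), while the alternatives reached up to 0.276. Within a library, the ratio of Smad2 to Smad3 FPKM was 0.632, 0.916 and 0.937 in DOX against 0.495, 0.488 and 0.542 in PBS. Every DOX ratio was above every PBS ratio, at 1.63-fold between the means, with exact two-sided permutation p = 0.1, the smallest possible. Per length Smad4 was the second most abundant in DOX of the 5 SMAD genes among the 36. It was at 7.51 ± 0.90 FPKM in DOX and 6.58 ± 0.24 FPKM in PBS (SD, n = 3 each). Smad1 was at 8.75 ± 0.67 FPKM in DOX and 6.31 ± 0.66 FPKM in PBS (SD, n = 3 each). Smad2 was at 2.21 ± 0.15 FPKM in DOX and 1.96 ± 0.08 FPKM in PBS (SD, n = 3 each).

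Among the negative regulators, Smurf1, a ubiquitin ligase that targets BMP SMADs and receptors for degradation, had 38.1, 34.8 and 36.5 CPM in DOX and 29.9, 26.9 and 28.4 CPM in PBS. The groups were separate, with a rise of 1.28-fold (log2 0.36, SE 0.10, adjusted p = 0.0207). It was not called when scaled by library size alone (adjusted p = 0.157), nor without DOX 1 (0.064), DOX 3 (0.0592), PBS 2 (0.0871) or PBS 3 (0.0632); its adjusted p ran between 0.0132 and 0.19. Its relative Smurf2 overlapped, at 47.9 to 56.6 CPM in DOX and 49.7 to 56.3 CPM in PBS.

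Pmepa1, a membrane protein that TGF-beta induces and that sequesters SMAD2 and SMAD3, had 11.7, 10.8 and 8.51 CPM in DOX and 17.3, 16.2 and 15.9 CPM in PBS. All DOX libraries were below all PBS libraries. Pmepa1 fell by 0.67 on the log2 scale, or 1.59-fold (SE 0.14, adjusted p = 0.00585), and was called lower under all 15 alternatives, with adjusted p-values up to 0.0244. Fibroblasts and stellate cells are among the makers of Ltbp2 and Pmepa1, and the part of the lower stellate cell and fibroblast sum in their falls was not tested. Skil, another gene that TGF-beta induces and whose product represses SMADs, had 36.5, 55.1 and 43.4 CPM in DOX and 29.2, 33.9 and 37.4 CPM in PBS. DOX 1 lay within the PBS range, and the log2 fold change of 0.43 did not pass (adjusted p = 0.0549). It did without DOX 1 (0.0229) and with DESeq2 (0.0449); the alternatives ran between 0.018 and 0.372. Ski (47.1 to 62.7 CPM in DOX, 56.1 to 63.8 in PBS), Tgif1 (17.5 to 26.2 in DOX, 23.6 to 28.6 in PBS) and the decoy receptor gene Bambi (5.16 to 8.57 in DOX, 4.36 to 7.28 in PBS) all overlapped between the groups and were not called.

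**Figure D3:**
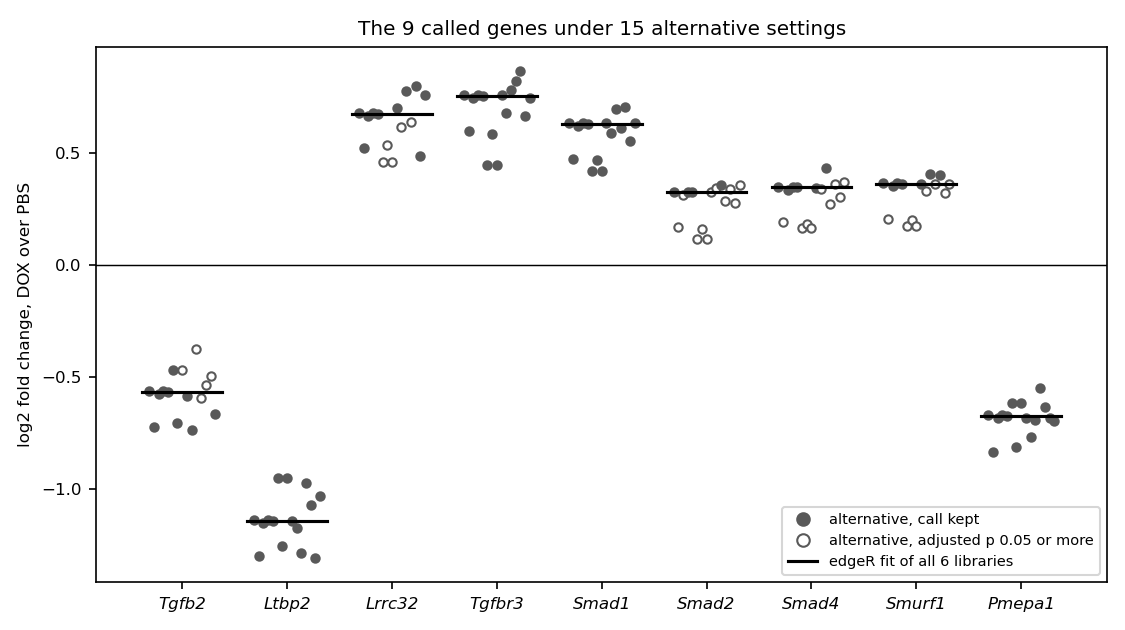
Log2 fold change, DOX over PBS, of the 9 genes that passed the edgeR test, under 15 alternative settings; a filled point kept its call, an open point did not, and the bar is the value from all 6 libraries. Ltbp2, Pmepa1, Tgfbr3 and Smad1 have filled points throughout, and all points of the 9 genes keep their side of 0.

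Of the 9 called genes, 4 kept their call under every alternative, namely Ltbp2, Pmepa1, Tgfbr3 and Smad1. Of the 27 that were not called, 9 were called under at least 1 alternative.

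Inhbe, which encodes the activin E subunit and is made by hepatocytes, had 0.556, 5.48 and 0.349 CPM in DOX, from 21, 186 and 11 counted reads, against 13.1, 40.1 and 27.6 CPM in PBS, from 568, 1756 and 1180 reads. All DOX libraries were below all PBS libraries, DOX 2 was the highest in its group, and PBS 1 the lowest in its own. The fitted fold was 12.7-fold lower (log2 -3.66, SE 1.13, 95% interval -6.67 to -0.65). Its adjusted p was 0.0802. It was 0.00589 without robust estimation, 0.013 with DESeq2, 0.00475 with limma on log2(FPKM + 1) and 0.0146 without DOX 2, with alternatives between 0.00475 and 0.187. Inhbe had the largest fitted fold difference of the 36 genes. The 6 hepatocyte markers summed to 83600 to 107000 CPM in DOX and 81800 to 85200 CPM in PBS, with Alb at a mean of 82300 CPM in DOX and 71300 CPM in PBS making up most of the sum. Hnf4a, Serpina1c and Tat rose, and Ttr was lower in every DOX library (log2 fold change -0.40, adjusted p = 0.113). The part of hepatocyte number or state in the Inhbe values was not tested.

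Inhbc, the gene of the activin C subunit, lies 4473 bases from Inhbe on chromosome 10 (positions 127356322 to 127370548, against 127349402 to 127351848 for Inhbe, in GRCm38.p6) and on the same strand. It had 13.8, 17.6 and 6.95 CPM in DOX and 13, 23.9 and 20 CPM in PBS. The groups overlapped, with a log2 fold change of -0.56 (SE 0.37, adjusted p = 0.31). The ratio of Inhbe to Inhbc FPKM within a library was 0.0359, 0.278 and 0.0449 in DOX against 0.902, 1.5 and 1.24 in PBS. Every DOX ratio was below every PBS ratio (exact two-sided permutation p = 0.1, the smallest possible). The part of reads shared between the neighbouring genes was not tested.

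Inhba, the subunit of activin A and the form most tied to inflammation, had 3.33, 10.4 and 3.9 CPM in DOX and 10.1, 13.3 and 11.3 CPM in PBS. DOX 1 and DOX 3 were well below PBS, while DOX 2 lay inside the PBS range. Inhba had a log2 fold change of -0.98 (SE 0.42, adjusted p = 0.135). Without DOX 2 this became -1.67 (adjusted p = 6.34e-05), and it also passed in the limma fits on log2(FPKM + 1) (0.0362) and log2(FPKM + 0.1) (0.0393), while other alternatives gave up to 0.312. Inhbb pointed the other way, with 9.29, 15.9 and 13.3 CPM in DOX and 7.69, 8.17 and 10.4 CPM in PBS (log2 fold change 0.55, SE 0.20, adjusted p = 0.057). Its DOX 1 value lay within the PBS range, and it passed without DOX 1 (0.0176) and with DESeq2 (0.038), while other alternatives gave up to 0.314. DOX 2 had the highest level of the DOX libraries for each of the 4 subunit genes.

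Together Inhbc and Inhbe made up 75.1, 71.9 and 52.1% of the FPKM of the 4 subunit genes in DOX, against 83.3, 91.4 and 87.6% in PBS. The share was 66.3 ± 12.5% in DOX and 87.4 ± 4.06% in PBS (SD, n = 3 each; exact two-sided permutation p = 0.1, the smallest possible). It was 21.1 percentage points lower in DOX. Fst, follistatin, which binds and blocks activins, overlapped at 5.58, 5.1 and 4 CPM in DOX and 6.17, 5.7 and 4.52 CPM in PBS (log2 fold change -0.16, adjusted p = 0.586). The ratio of Fst to Inhba FPKM was 8.41, 2.46 and 5.14 in DOX and 3.08, 2.15 and 2.01 in PBS and overlapped (exact two-sided permutation p = 0.2). Over the 6 within-library quantities tested, no p-value could fall under 0.1, so none could pass 0.05.

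**Figure D4:**
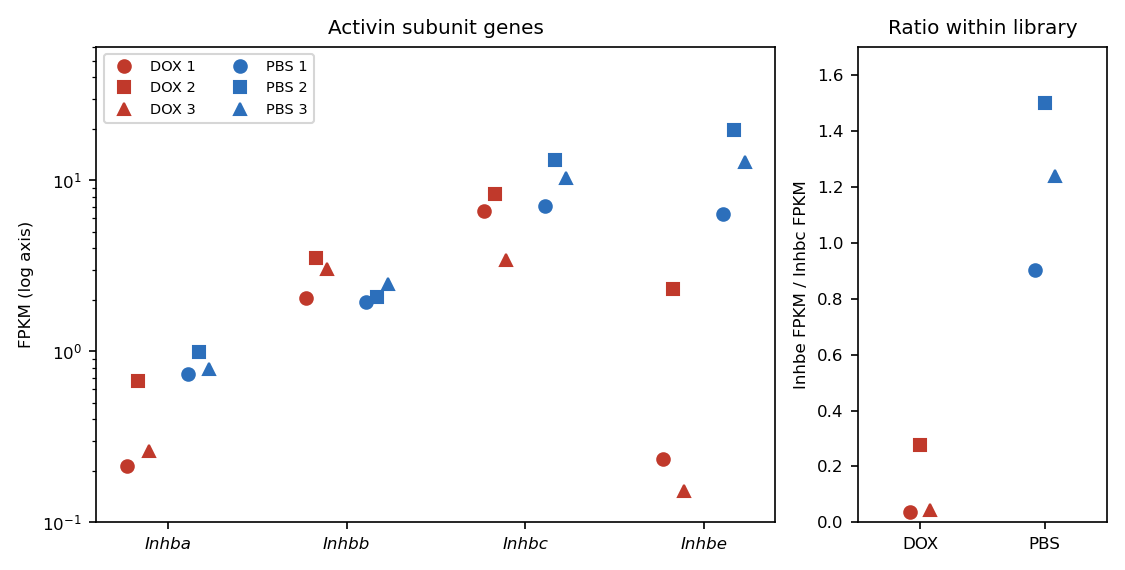
Left, FPKM (logarithmic axis) of the 4 activin subunit genes in each DOX (red) and PBS (blue) library, with a marker shape per replicate number; right, the ratio of Inhbe to Inhbc FPKM within each library, on a linear axis from 0. The DOX ratios are 0.0359 to 0.278 and the PBS ratios 0.902 to 1.5.

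None of the 6 activin and BMP receptor genes was called by edgeR; 2 of them, Bmpr1a and Acvr1, had an unadjusted p under 0.05. Acvr1 (21.5 to 22.4 CPM in DOX, 17.3 to 20.3 in PBS; log2 fold change 0.25, adjusted p = 0.119) and the BMP type II receptor gene Bmpr2 (53.2 to 63.2 in DOX, 47.4 to 52.7 in PBS; 0.17, adjusted p = 0.236) were higher in every DOX than in every PBS library. Bmpr1a, a BMP type I receptor gene, was lower in every DOX library, at 36.4, 40.8 and 40.4 CPM against 42.8, 51.0 and 51.1 CPM in PBS (log2 fold change -0.30, adjusted p = 0.0572). Bmpr1a passed when scaled by library size alone (adjusted p = 0.0088) and without PBS 1 (0.0448), and the alternatives gave up to 0.177. The activin receptor genes Acvr1b (15.9 to 23.1 CPM in DOX, 17.4 to 19.8 in PBS), Acvr2a (23.5 to 26.6 in DOX, 19.7 to 23.7 in PBS) and Acvr2b (2.86 to 5.56 in DOX, 3.26 to 3.92 in PBS) overlapped. Their 95% intervals ran from -0.23 to 0.39, from -0.02 to 0.48 and from -0.39 to 0.70 on the log2 scale.

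The pathway around these genes was read from a list of 53 other components, of which 46 were tested. The list was chosen with earlier results of these data known. Of the 46 genes, 10 rose and 6 fell, or 21.7% and 13.0%, against 13.5% and 14.0% of all tested genes. The list median was 0.02. The 6 that rose with the smallest p included all 3 further SMAD genes. Smad9, a BMP SMAD, had 25.5, 26.2 and 38.3 CPM in DOX and 6.86, 5.50 and 8.29 CPM in PBS, 4.36-fold higher (adjusted p = 0.000112). Smad7, the inhibitor of TGF-beta receptors, rose 2.21-fold, with 43.7, 45 and 42.2 CPM in DOX and 20.9, 20.3 and 18 CPM in PBS (adjusted p = 8.08e-05). Smad6, the inhibitor of BMP signals, rose 1.81-fold (adjusted p = 0.000695). Itgb3, a partner chain of Itgav, rose 3.3-fold (adjusted p = 9.52e-05), the kinase adaptor gene Tab2 1.66-fold and Furin, whose protease cleaves the TGF-beta precursor, 1.48-fold. Itgav itself was not called (log2 fold change -0.22, adjusted p = 0.107). The platelet marker sum was 15.9 to 18.2 CPM in DOX and 9.7 to 11.4 CPM in PBS. The part of platelets in the rise of Itgb3 was not tested. Of genes that fell, Tgfb1i1, a TGF-beta-induced adaptor of focal adhesions, was 1.88-fold lower and the endosomal SMAD anchor gene Zfyve16 1.71-fold lower. Nrros, which tethers latent TGF-beta on macrophages, was 1.43-fold lower, and the matrix genes Fstl1 and Fbn1 were 1.42-fold and 1.4-fold lower. Gdf11, a ligand close to the lower limit of counting at a mean of 0.12 CPM in DOX and 0.532 CPM in PBS, was 4.2-fold lower. The calls of Nrros ended without DOX 1 (0.0641) or PBS 1 (0.0777), of Fstl1 without DOX 3 (0.0551) or PBS 1 (0.0593), of Fbn1 without DOX 3 (0.0702), PBS 1 (0.0604) or PBS 3 (0.0654) and of Gdf11 without DOX 3 (0.0826), PBS 1 (0.0539), PBS 2 (0.0507) or PBS 3 (0.0862). Scaled by library size alone 6 of the list rose and 10 fell. Calls of higher genes numbered 6 without PBS 2 or PBS 3, and calls of lower genes 3 without DOX 3 or PBS 1.

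Genes that TGF-beta is known to induce were counted next. Of 33 tested, 10 fell and 1 rose, or 30.3% and 3.03%, against 14.0% and 13.5% of all tested genes, and the other 22 were not called. The list median was -0.14. Because the list was chosen with earlier results of these data known, these shares are a description and not a test. Among those not called, Cdkn1a (1.96-fold, adjusted p = 0.161) and Tagln (1.54-fold, 0.0829) were higher in every DOX than in every PBS library. Snai1 and Rhob were lower in every DOX library (adjusted p = 0.242 and 0.256). Of genes given above as induced by TGF-beta, Pmepa1 and Tgfb1i1 fell and Skil was not called. These, and Smad7, which rose, are counted in other lists and not here. Col3a1 and Col1a1, the fibrillar collagens, were both 2.76-fold lower. Col3a1 averaged 238 ± 63.1 CPM in DOX and 657 ± 60.8 CPM in PBS, and Col1a1 87.5 ± 25.7 CPM in DOX and 241 ± 52 CPM in PBS (SD, n = 3 each). Col1a2 fell by 1.12, the matricellular gene Ccn1 by 0.82, the transcription factor gene Sox4 by 0.83 and the mechanical stress gene Ankrd1 by 1.16, all on the log2 scale. Ccn2, a matricellular gene often used as a TGF-beta readout, was not called (log2 fold change -0.04, adjusted p = 0.834; 0.06 without DOX 2 and 0.07 without PBS 1). The gene that rose was Nox4, an oxidase that hepatocytes and stellate cells both make, with 62.9, 50.4 and 106 CPM in DOX and 19.6, 18.4 and 22.1 CPM in PBS (3.64-fold, adjusted p = 0.00311). Without DOX 3 or PBS 1, 6 of the list fell, and 3 rose without DOX 2 or PBS 1, with 2 rising without DOX 3. Ccn2, Cdkn1a, Tagln, Snai1 and Rhob were named after their values were seen. Col1a1 and Col3a1 are also among the stellate cell and fibroblast markers, whose sum was 449 to 688 CPM in DOX and 1080 to 1280 CPM in PBS. Of these 10 markers, 7 were called lower and 1 higher. The part of fewer such cells in the falls of Col1a1, Col3a1 and the other genes of the target list was not tested.

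The 4 genes listed as targets of BMP SMADs all rose, against 13.5% of all tested genes. This short list was chosen with earlier results of these data known. Its count, its median and the share beside it are therefore a description and not a test of the pathway. Id1 had 42.5, 36.1 and 44 CPM in DOX and 15.8, 20.3 and 12.7 CPM in PBS (2.51-fold, adjusted p = 0.000412). Atoh8 rose 3.56-fold, Id2 1.82-fold and Id3 1.55-fold, with adjusted p-values of 0.000528, 0.000493 and 0.00257. Each of the 4 had separate groups, as did 44.1% of all tested genes. The median of these 4 was 1.1 on the log2 scale. An unfiltered limma fit on FPKM ended the Id3 call (adjusted p = 0.0589), and the other 3 were called under all 15 alternatives.

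**Figure D5:**
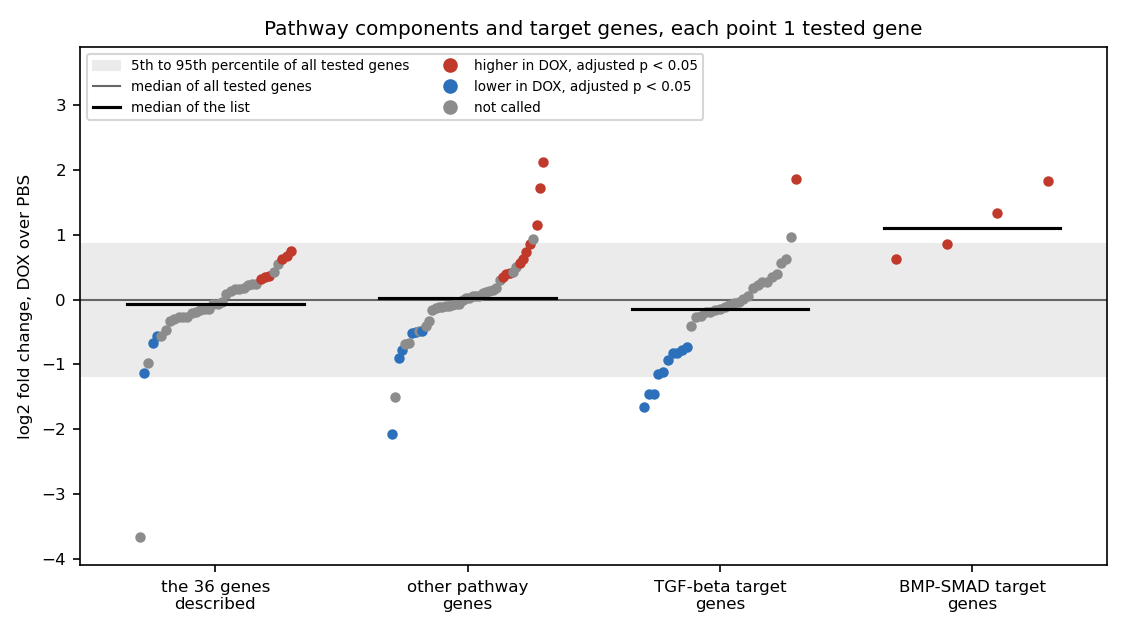
Log2 fold change, DOX over PBS, of each tested gene in 4 lists, with the list median as a black bar and the median and 5th to 95th percentile of all tested genes as a grey line and band. The 36 genes have a median of -0.07, the 46 other pathway genes 0.02, the 33 TGF-beta target genes -0.14 and the 4 BMP-SMAD target genes 1.1. The lists were chosen with earlier results of these data known.

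For the 36 genes the coefficient of variation of CPM had a median of 15.1% in DOX and 9.6% in PBS, against 13.7% and 10.7% over all tested genes. It ran up to 136% in DOX and 50.2% in PBS, both for Inhbe.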

How the data were processed

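Per the labels' protocols, liver RNA was isolated on Qiagen columns and SMARTER mRNA libraries were made from it. Read counts per gene symbol were deposited by the authors as whole numbers with no normalization. They also deposited FPKM values for the same libraries, each equal to the count over a fixed gene length and the library's own total. The submitters' processing notes name GRCm38, hg38 and mm10 without saying which served what. Not given in the sources used here are the aligner, the counter, its strand setting and the annotation, so counts of overlapping or antisense genes are uncertain. Columns were matched to samples by title.

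Counts were tested with edgeR 4.0.16 (R 4.3.3; quasi-likelihood, robust, TMM scaling, group as the only term) after filterByExpr (minimum count 10, minimum total 15), with Benjamini-Hochberg adjustment over 14681 genes. SE and intervals derive from the F statistic. Within-library ratios used FPKM. Alternatives used DESeq2 1.42.0, limma 3.58.1 on log2(FPKM + 1) or log2(FPKM + 0.1), other scalings, no filter, a replicate block and each library left out. Fold changes on the log2(FPKM + 1) scale understate those of low genes. The procedure was tested on simulated data in which few genes changed, as many up as down. Such data could not probe how the calls depend on the scaling. Libraries of a group differed far beyond sampling noise (chi-square per degree of freedom 28.2 to 78.5) and none was taken as a copy.

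The genes, lists and tests were chosen with earlier results of these data known. All 36 genes are named. Those called, or with an absolute log2 fold change of 0.5 or more, and Tgfb1 are given in full. Of the other pathway genes and the TGF-beta targets, up to 6 called in each direction by smallest p are named. The BMP-SMAD targets are given whole. Ccn2, Cdkn1a, Tagln, Snai1 and Rhob fall outside this rule. Of all listed symbols, 5 had no match in the table. Promoter windows came from RefSeq (GRCm38.p6) for 27 genes. PCR duplicates are not corrected for in any interval or test.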

Additional observations from a re-analysis of the deposited data

How the results depend on the processing

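Over 61 named genes and 15 alternatives, 806 of 915 values kept direction and side of the threshold, 51 lost a call, 38 gained one and 20 changed direction; the cause was not tested. The settings were DESeq2's size factors, library size alone, no filter, DESeq2, no robust estimation, 3 limma fits on FPKM, the replicate block and each library left out.

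Scaled by library size alone, 1028 genes rose and 3429 fell over all genes (1975 and 2062 with TMM), 3 and 8 of the 36 genes, and 6 and 10 of the other pathway genes. With limma on log2(FPKM + 1), 917 rose and 3202 fell, 2 and 10 of the 36 genes; 6 other pathway genes rose. With log2(FPKM + 0.1) the counts were 948 and 3227, 2 and 10, and 6 and 11. With limma and no filter, 537 rose over all genes, 2 rose and 6 fell of the 36, and 6 other pathway genes rose. Of the TGF-beta targets, the number that rose was 2 with no filter, 3 with DESeq2, 2 with no robust estimation and 2 with the replicate block, against 1.

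With single libraries left out, the counts ran over all genes from 1208 to 2440 higher and from 1305 to 2348 lower, and over the 36 genes from 2 to 6 higher. They ran from 6 to 11 higher and from 3 to 6 lower for other pathway genes, and from 1 to 3 higher and from 6 to 8 lower for TGF-beta targets.

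Counts in place of FPKM, which are not per length, moved the difference in the Tgfb1 share to 4.05 percentage points (1.63 with FPKM), in the Smad2 to Smad3 ratio to 0.82 (0.32) and in the Fst to Inhba ratio to 0.582 (2.92).

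Same-numbered libraries did not deviate together (r of 0.086, -0.073 and -0.134 for numbers 1 to 3), and DOX 2 correlated best with PBS 3, so the numbers were not taken as pairs. With the replicate block 1633 genes rose and 1849 fell, with 7 and 4 of the 36 genes: Inhba (-1.14, adjusted p = 0.0107), Skil (0.0381) and Inhbb (0.0452) gained a call and Smad2 (0.0598) lost it.

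Directions changed for genes near 0, in log2 fold change. Ltbp4 (-0.07) was 0.0413 without DOX 3 and 0.0794 without PBS 1, with leave-one-out values of -0.236 to 0.0794. Smad5 (0.13) was -0.0228 by library size alone, -0.0185 with limma on log2(FPKM + 1), filtered or not, and -0.022 on log2(FPKM + 0.1). Smurf2 (-0.03) reached 0.0224 without DOX 1 and 0.0157 without PBS 3, from -0.0852. Ski (-0.07) reached 0.0493 without DOX 1, from -0.136. Acvr1b (0.08) was -0.0765 by library size alone, -0.0716 with limma on log2(FPKM + 1), filtered or not, -0.089 on log2(FPKM + 0.1), and -0.0344 without DOX 2, up to 0.218. Acvr2b (0.16) was -0.00136 with limma on log2(FPKM + 1), filtered or not, -0.0256 on log2(FPKM + 0.1) and -0.14 without DOX 3, up to 0.363. Ccn2 (-0.04) was 0.0638 without DOX 2 and 0.072 without PBS 1, from -0.143.

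Depth limits the lowest values: Inhbe had 11 to 186 reads in DOX libraries, and Ppbp and Gp9 were too low to be tested.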
